A study of Mus musculus with 14 samples.

Results

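Irf1, Irf2, Irf5, Irf7 and Irf8 encode 5 interferon regulatory factors (IRFs), transcription factors of interferon and immune cell programmes. They were taken by name, and every probe whose accession maps through RefSeq to one of these symbols was kept. That gave 7 probes, a pair each for Irf1 and Irf7 and 1 each for Irf2, Irf5 and Irf8, out of 31766 probes tested, and 5 of the 14729 tested genes with a symbol. RNA came from the spleens of 7 wild-type (WT) mice and 7 Sting gt/gt mice, all C57BL/6. The mice were 10 to 14 weeks old when arthritis was induced. Sting gt/gt mice carry golden ticket, an allele of the Sting gene (Sting1) made with the mutagen ENU. Mice of both groups had been injected intradermally with complete Freund's adjuvant (CFA) and chicken type II collagen (CII), which induces arthritis, and spleens were taken 2 weeks after the first injection. WT mice were purchased and Sting gt/gt mice came from another laboratory, so the groups differ in source as well as genotype. Red blood cells were lysed before RNA was isolated, and no mouse without CFA and CII was on the arrays.

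IRFs share a DNA-binding domain that reads GAAA repeats, the core of the interferon-stimulated response element (ISRE). Irf1 is induced by interferon gamma and activates such elements, and Irf2 competes for them, mostly as a repressor. Irf5 and Irf7 wait in the cytoplasm until Toll-like receptors or nucleic acid sensors have them phosphorylated, after which Irf5 drives inflammatory cytokines and Irf7 drives type I interferons. Irf8 binds with partners such as PU.1, directs dendritic cells and monocytes and is present in B cells, while STING, which senses cyclic dinucleotides made from cytosolic DNA, acts through the kinase TBK1 on Irf3 and its relatives.

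Each mouse was read on 1 one-colour Agilent array. Values are log2 signal with the 75th percentile of the array set to 0, and a value is compared only with values of the same probe. Replicates 1 to 3 of both genotypes were scanned on 1 day, scan day 1 here, and replicates 4 to 7 on another, scan day 2. On scan day 2 the WT arrays and the Sting gt/gt arrays sat on different slides, so slide and genotype cannot be told apart there. All 8 B cell markers and all 7 T cell markers were tested, being well above background on 7 or more of 14 arrays. Well above background is the scanner software's own call. The same filter kept 31766 of 56605 probes, so detection of these markers is a weak check of the tissue. The genotype labels could not be checked from these arrays, because golden ticket is a change of a single base that removes the protein and need not change the mRNA. The gene itself, Sting1 (A_51_P240801) lay between 2.35 and 2.85 in WT mice (median 2.64), while Sting gt/gt mice lay between 2.45 and 2.77 (median 2.65). Its probe did not tell the genotypes apart, which says nothing of the labels either way, with a log2 fold change of 0.04 (SE 0.10, two-sided exact permutation p = 0.651).

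The promoters of the members are shown because interferons and the IRFs themselves act on such genes through short motifs near the start site. RefSeq promoters for GRCm38.p6, from 250 bases before to 50 bases after a start site, matched all 5 members, with 7 promoters in total. Both strands were searched for the ISRE, GAAANNGAAA, the Ets-IRF composite element (EICE), GGAANNGAAA, and the interferon gamma activated site (GAS), TTCNNNGAA. Stretches of the 3 promoters that hold a match are given 5′ to 3′ on the strand of the gene, with the matches in capitals. The GAS pattern reads the same on both strands, so a GAS match has no orientation.
Irf1, chr11:53769904-53769952, + strand: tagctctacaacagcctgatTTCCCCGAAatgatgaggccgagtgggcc
Irf2, chr8:46739495-46739549, + strand: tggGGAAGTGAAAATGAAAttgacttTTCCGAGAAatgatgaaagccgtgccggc
Irf8, chr8:120736167-120736233, + strand: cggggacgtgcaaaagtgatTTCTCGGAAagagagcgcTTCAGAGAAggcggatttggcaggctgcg
The Irf1 promoter holds 1 GAS, which begins 90 bases before the start site. The Irf2 promoter holds an EICE 247 bases before the start site, an ISRE that overlaps it and begins 241 bases before, and a GAS that begins 224 bases before. The Irf8 promoter holds 2 GAS matches, which begin 171 and 153 bases before the start site. None of the 3 motifs was found in the windows of Irf5 and Irf7 or in the second windows of Irf1 and Irf8. Among all 32851 promoters in the table, 3.44% hold the ISRE, 2.72% the EICE and 8.30% the GAS, and a match describes letters, not binding.

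Irf1, the activator induced by interferon gamma, was read by A_55_P2000062 and A_52_P175685. At A_55_P2000062, WT mice lay between 3.85 and 4.44 with a median of 4.17. Sting gt/gt mice lay between 3.48 and 4.72 with a median of 4.18. The groups overlapped, with Sting gt/gt replicate 1 below all WT mice and replicates 5, 6 and 7 above all of them, and the log2 fold change was 0.10 (SE 0.18, exact permutation p = 0.591). Split by scan day, the means on scan day 1 were 3.98 ± 0.16 in WT and 3.84 ± 0.35 in Sting gt/gt (SD, n = 3 each). On scan day 2 they were 4.23 ± 0.14 and 4.51 ± 0.23 (SD, n = 4 each), a difference of 0.28 with an exact permutation p of 0.0857, and 3 of 4 Sting gt/gt mice were above all 4 WT mice. The difference between these scan-day effects was 0.42 (SE 0.24, exact permutation p = 0.109), so a genotype effect limited to scan day 2 was not shown. A_52_P175685 lay between -3.05 and -1.52 in WT mice (median -2.22), while Sting gt/gt mice lay between -2.65 and -1.54 (median -2.22). There too the groups overlapped, and no mouse of 1 genotype lay beyond all mice of the other except WT replicates 3, 2 and 7. Its log2 fold change was 0.08 (SE 0.24, exact permutation p = 0.757).

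Irf2, the competitor of Irf1, lay between -0.01 and 0.83 in WT mice (median 0.26), while Sting gt/gt mice lay between 0.15 and 0.61 (median 0.40). All Sting gt/gt values fell inside the WT range, and the log2 fold change was -0.03 (SE 0.14, exact permutation p = 0.816). Within scan day 1 the 3 WT mice had values of 0.71, 0.83 and 0.62, and the 3 Sting gt/gt mice 0.61, 0.53 and 0.46. Every Sting gt/gt mouse was below every WT mouse on that day, a difference of -0.19 with an exact permutation p of 0.1, the smallest that 3 against 3 allows. On scan day 2 the groups overlapped, with means of 0.15 ± 0.12 in WT and 0.24 ± 0.11 in Sting gt/gt (SD, n = 4 each) and a difference of 0.08 (exact permutation p = 0.457). The genotype effects of the scan days differed by 0.27 (SE 0.15, exact permutation p = 0.0386), but limma's adjusted p over all probes was 0.363.

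Irf5, which drives inflammatory cytokines downstream of Toll-like receptors, lay between 0.90 and 2.08 in WT mice (median 1.58), while Sting gt/gt mice lay between 0.86 and 1.96 (median 1.60). Low and high values followed the scan day in both genotypes, and the log2 fold change was -0.08 (SE 0.23, exact permutation p = 0.752). In order of mean level, WT (1.05 ± 0.16) and Sting gt/gt mice (1.06 ± 0.33) of scan day 1 came first (SD, n = 3 each). Sting gt/gt (1.76 ± 0.16) and WT mice (1.90 ± 0.23) of scan day 2 followed (SD, n = 4 each). Neighbouring genotypes within a day differed by less than their SD, while the lowest mouse of scan day 2, at 1.58, was above the highest of scan day 1, at 1.44.

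Irf7, the main inducer of type I interferons in plasmacytoid dendritic cells and itself an interferon target, was read by A_55_P2744251 and A_51_P421876. At A_55_P2744251, WT mice lay between 4.73 and 5.65 (median 4.97), Sting gt/gt mice between 4.52 and 5.38 (median 5.04). Only Sting gt/gt replicate 6 was below all WT mice, WT replicates 1 and 3 were above all Sting gt/gt mice, and the log2 fold change was -0.16 (SE 0.17, exact permutation p = 0.365). A_51_P421876 lay between -0.32 and 0.60 in WT mice (median 0.01), while Sting gt/gt mice lay between -0.53 and 0.25 (median 0.03). The same Sting gt/gt mouse, replicate 6, was lowest at both probes, and the second probe had a log2 fold change of -0.12 (SE 0.18, exact permutation p = 0.534). Of the differences within scan days, those of A_55_P2744251 were -0.20 on scan day 1 (exact permutation p = 0.5) and -0.14 on scan day 2 (exact permutation p = 0.457).

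Irf8, which sets the dendritic cell and monocyte lineages, lay between 4.01 and 4.68 in WT mice (median 4.31), while Sting gt/gt mice lay between 3.94 and 4.65 (median 4.31). The groups covered nearly the same range, and the log2 fold change was -0.04 (SE 0.14, exact permutation p = 0.769). Split by scan day, its difference was -0.04 on the first (exact permutation p = 0.7) and -0.04 on the second (exact permutation p = 0.714).

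**Figure D1:**
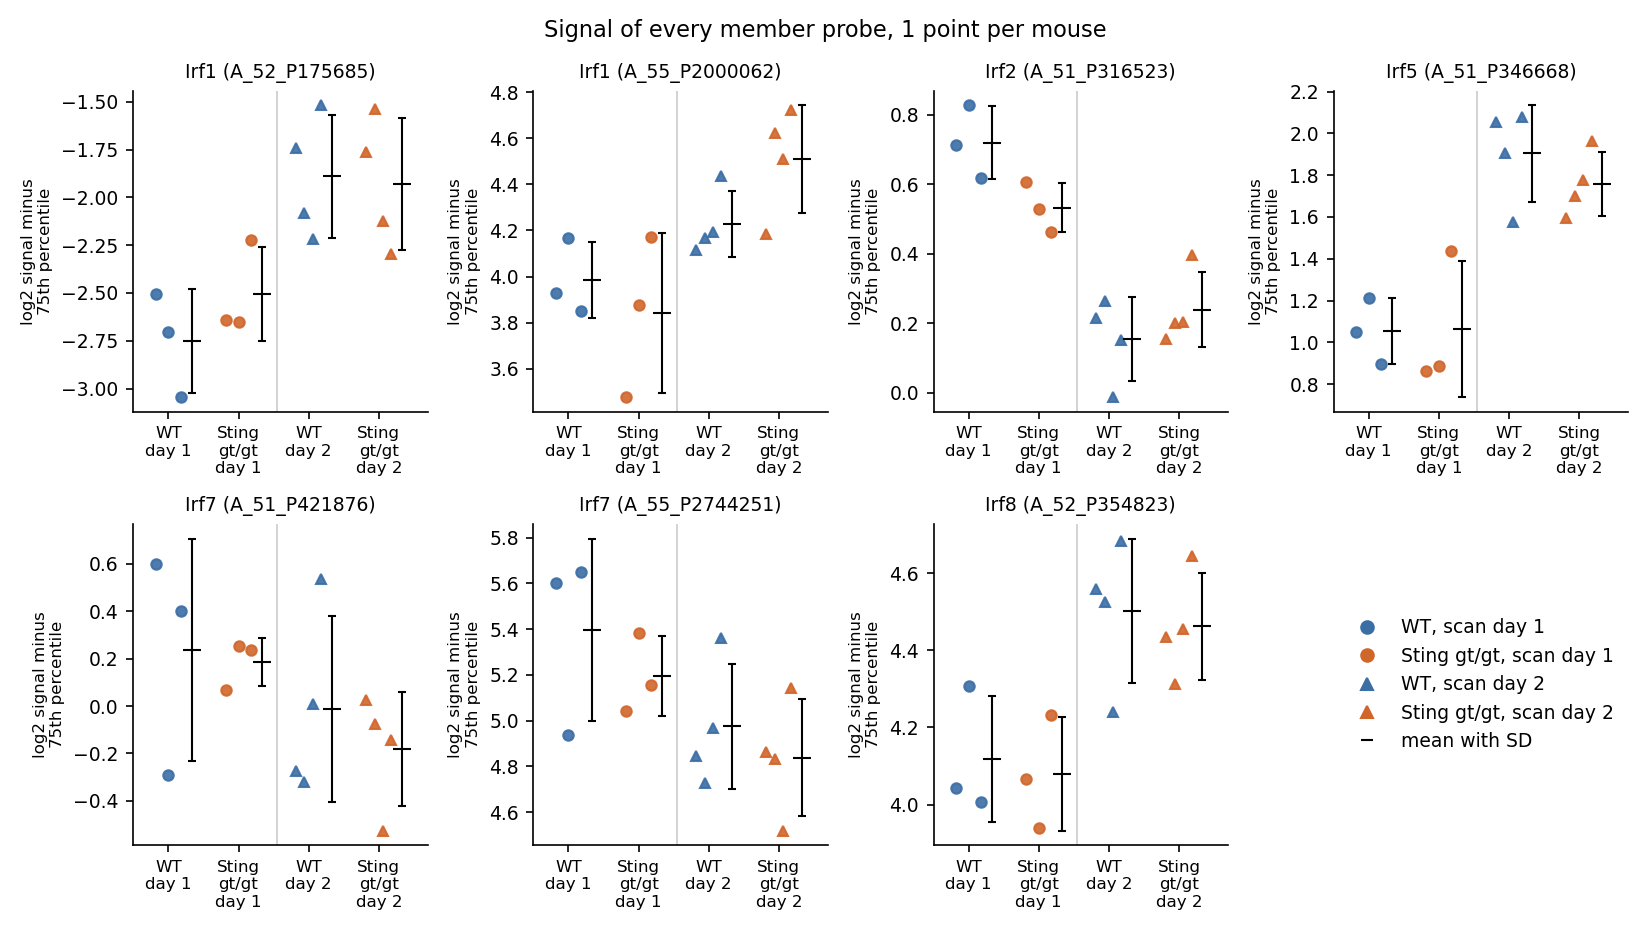
Log2 signal minus the 75th percentile of the array (vertical axis) for each of the 7 member probes, by genotype and scan day (horizontal axis), with 1 point per mouse and the mean with SD beside each group. Irf5 values of scan day 2 (1.58 to 2.08) all sit above those of scan day 1 (0.86 to 1.44), and Irf2 values of scan day 2 (-0.01 to 0.40) all sit below those of scan day 1 (0.46 to 0.83).

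Taken over the members, 0 of 7 probes passed an unadjusted p under 0.05 between genotypes by limma, where 3.43% of all tested probes (1091) passed. At an adjusted p under 0.05 the count was again 0 of 7, where 1 probe in all, 0.00315%, passed. The count over all probes changed with the model, to 1825 with the replicate number as a block and 2325 with scan day as a term, and the member counts given here are from the fit with neither. By gene, read from the brightest probe, 0 of 5 members passed, where 2.90% of genes with a symbol did. The log2 fold changes of the 7 probes ran from -0.16 to 0.10, with 95% confidence intervals that reached from -0.57 to 0.59, and a p that misses the threshold does not show equal levels. All 7 pairs of groups overlapped, which was not counted over all probes and is no result about the members.

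Within scan day 1, 0 of 7 member probes passed an unadjusted p under 0.05, where 3.81% of all probes did. Within scan day 2, 0 of 7 passed, where 22.7% of all probes did, with differences from -0.17 to 0.28, and by gene 0 of 5 passed, where 20.2% did. The difference in genotype effect between scan days passed for 0 of 7 member probes by limma, where it passed for 17.7% of all probes, and by gene for 0 of 5, where it passed for 14.7%. Only slides 1 and 2, both of scan day 1, held mice of both genotypes. On slide 1 the Sting gt/gt mouse differed from the mean of 2 WT mice by -0.57 (Irf1 A_55_P2000062) to -0.04 (Irf1 A_52_P175685). On slide 2 the difference of 1 mouse from 1 mouse ran from -0.27 (Irf7 A_55_P2744251) to 0.39 (Irf1 A_52_P175685). Each rests on 1 Sting gt/gt mouse, and the differences of all probes on these slides were not computed.

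**Figure D2:**
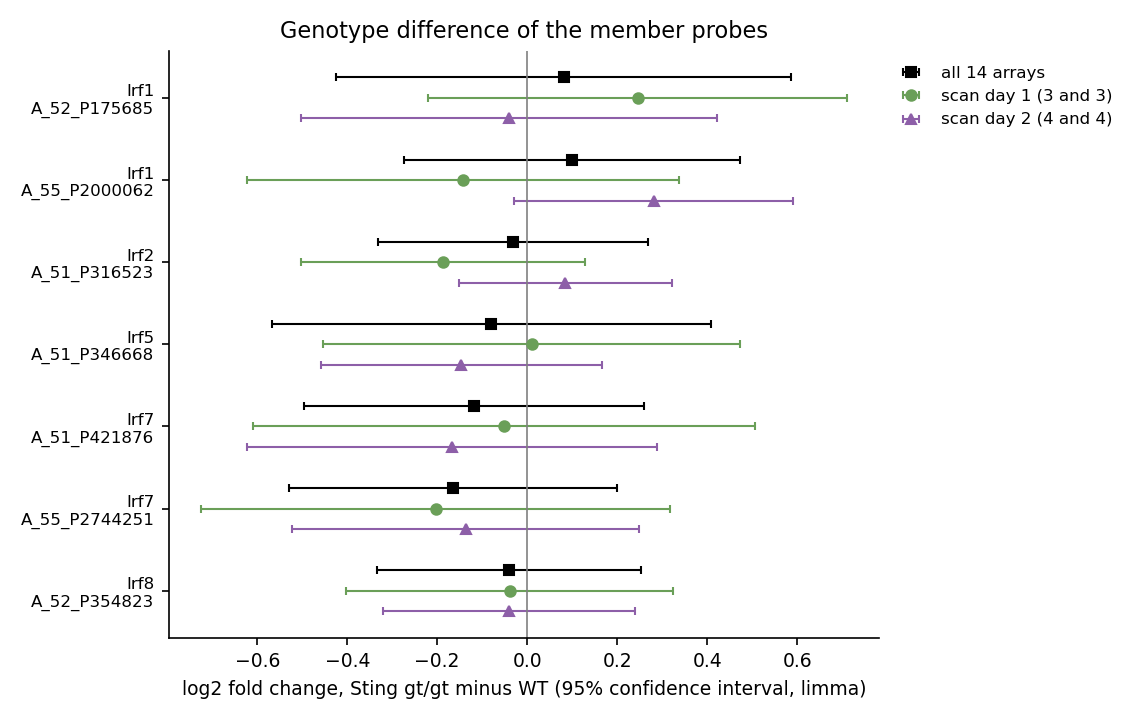
Log2 fold change of Sting gt/gt over WT (horizontal axis, with 95% confidence intervals by limma) for the 7 member probes, over all 14 arrays and within each scan day. All 21 intervals cross 0, and the one nearest to excluding it is Irf1 A_55_P2000062 on scan day 2, from -0.03 to 0.59.

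The members differed more between scan days than between genotypes. With genotype in the limma model, 6 of 7 member probes passed an adjusted p under 0.05 for scan day, where 39.0% of all probes (12389) did. By gene, all 5 members passed, where 38.9% of genes with a symbol did. Irf5 was higher on scan day 2 by 0.77 (SE 0.12, adjusted p = 0.000148), and 8 of 8 mice of scan day 2 were above all 6 of scan day 1. Irf2 was the reverse, with a difference of -0.43 (SE 0.08, adjusted p = 0.00099) and 8 of 8 mice below all of scan day 1. How many of all probes part the scan days so fully was not counted. Irf8 was higher by 0.38 (SE 0.09, adjusted p = 0.00477) in 7 of 8 mice. Irf1 was higher by 0.46 at A_55_P2000062 (adjusted p = 0.0129, 6 of 8 mice above all of scan day 1) and by 0.72 at A_52_P175685 (adjusted p = 0.00209, 7 of 8 mice). Irf7 was lower at A_55_P2744251, with a difference of -0.39 (adjusted p = 0.0406, 5 of 8 mice below all of scan day 1), and did not pass at A_51_P421876 (-0.31, adjusted p = 0.146). For Irf7 the call also depended on the scaling, since A_55_P2744251 no longer passed after quantile normalization (-0.22), median centring (-0.21) or no scaling (-0.36). With median centring the median of all probes was itself 0.17 higher on scan day 2. A scan day is a time of reading, and the mice of the scan days may differ in other ways that the files do not record.

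In the log2 table deposited for the series, these scan-day differences were small. How that table was normalized is not stated in the sources used here, so its small differences do not tell whether the scan-day differences lie in the reading or in the mice. There, 0 of 7 member probes passed an unadjusted p under 0.05, where 1.33% of all probes (424) did, and 0 of 7 passed an adjusted p, where 0% did. Irf5 differed by 0.12, Irf2 by -0.05 and Irf8 by 0.18 between scan days in the table, and the 7 probes ran from -0.05 to 0.19. Over all probes the SD of the scan-day difference was 0.138 in the table and 0.515 in the scanner values. Genotype differences of the members were much the same in both sources. In the table they ran from -0.20 for Irf7 (A_55_P2744251) to 0.08 for Irf1 (A_55_P2000062), and 0 of 7 passed an unadjusted p under 0.05, where 7.73% of all probes (2455) did.

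**Figure D3:**
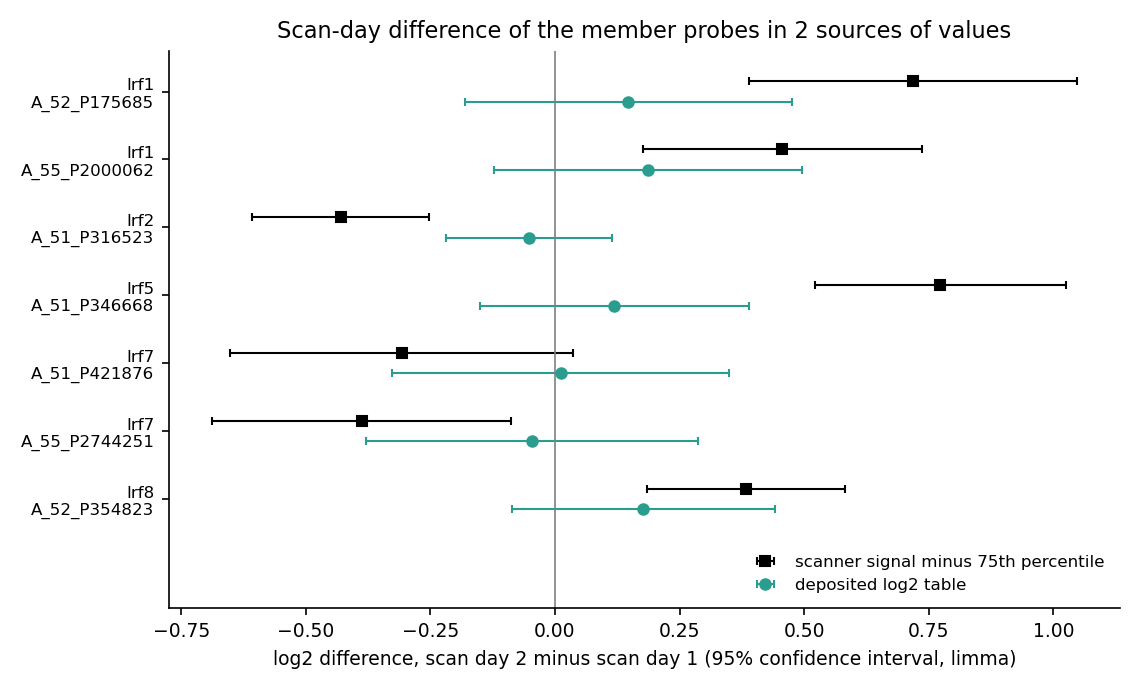
Log2 difference of scan day 2 minus scan day 1 (horizontal axis, with 95% confidence intervals by limma with genotype in the model) for the 7 member probes, in the scanner values and in the deposited log2 table. Irf5 moves from 0.77 in the scanner values to 0.12 in the table, and Irf2 from -0.43 to -0.05.

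How members varied from mouse to mouse was read after subtracting the mean of each genotype and scan day, with permutation tests on 100000 resamples within these groups and adjustment over 12 pairs of probes. Irf5 and Irf8 varied together, with Pearson's r of 0.87 (permutation p = 0.0016, adjusted 0.019) and Spearman's rho of 0.85 (permutation p = 0.0017, adjusted 0.0202). Without the 2 mice farthest from the median of Irf5, r was 0.83. How many other genes reach such an r with Irf5 or Irf8 was not counted, so it is not shown to be particular to this pair. The pair of Irf7 probes gave r of 0.89 (permutation p = 0.0037, adjusted 0.0221) and rho of 0.85 (permutation p = 0.0072, adjusted 0.0431), and r of 0.80 without the 2 farthest mice. The pair of Irf1 probes did not vary together to a like degree, with r of 0.24 (permutation p = 0.447, adjusted 0.766) and rho of 0.18 (permutation p = 0.574, adjusted 0.67). Irf1 and Irf5 had r of 0.71 (permutation p = 0.0225, adjusted 0.0898) and Irf2 and Irf8 r of 0.64 (permutation p = 0.0418, adjusted 0.126), neither past the adjusted threshold. No pair of Irf7 with another member passed, with r between -0.21 for Irf2 and 0.14 for Irf1.

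The genes most like each member were sought among 14721 other genes with a symbol by the same deviations over 14 mice, as a description with no p. Nearest to Irf7 were Ifit1 (r of 0.97), Usp18 (0.93) and Oasl1 (0.92), all of them on the fixed list of type I interferon targets. Nearest to Irf1 were Cysltr2 (0.93), Klhl20 (0.92) and Gbp5 (0.91), the last a guanylate-binding protein induced by interferon gamma. Irf2 was nearest to Adamtsl4 (0.93), Cyhr1 (0.92) and Golm2 (0.91). Irf5 was nearest to Bri3, Gm17745 and Fggy (0.95 each). Irf8 was nearest to Cul9 (0.97), Pvr (0.96) and Lrp4 (0.95). When the group means were left in, Ifit1 and Usp18 stayed among the 3 nearest to Irf7, and none of the genes named for the other 4 members did.

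**Figure D4:**
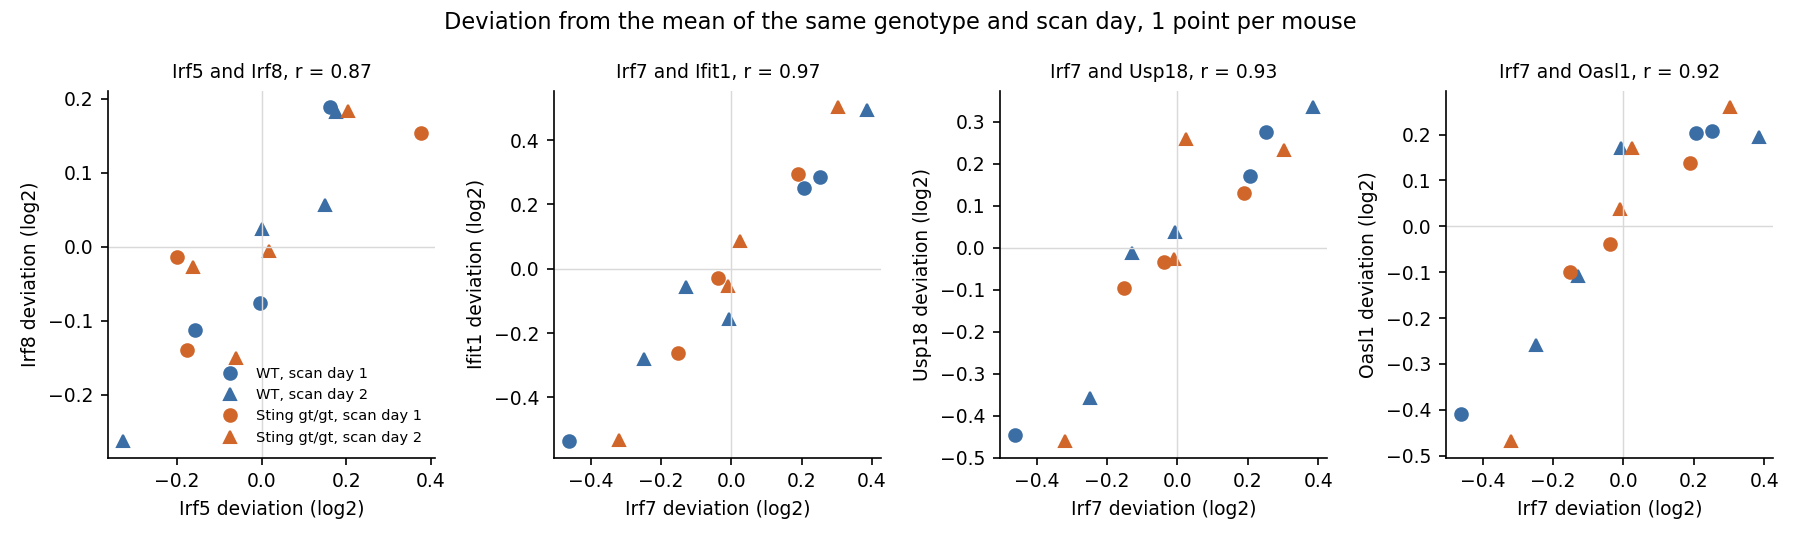
Deviation of each mouse from the mean of its genotype and scan day (log2, both axes) for Irf5 against Irf8 and for Irf7 against Ifit1, Usp18 and Oasl1, the 3 genes chosen for being most like it. Subtracting the means centres each group on 0, and whether the groups share a slope was not tested. Over all 14 mice r is 0.87 for Irf5 and Irf8 and 0.97 for Irf7 and Ifit1.

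Of the rest of the family, Irf3, Irf4 and Irf9 are described here. Irf9, the DNA-binding part of the complex that type I interferons send to the ISRE, had at A_51_P127367 a WT range of 1.88 to 2.36 (median 2.15) and a Sting gt/gt range of 1.58 to 2.11 (median 1.98). There 3 of 7 Sting gt/gt mice were below all WT mice, with a log2 fold change of -0.23 (SE 0.11, exact permutation p = 0.035, limma adjusted p = 1.0). At its brighter probe, A_55_P2114938, the log2 fold change was -0.10 (exact permutation p = 0.186). Irf3, the factor that TBK1 phosphorylates after STING, had log2 fold changes of -0.06 (A_55_P2083939) and 0.07 (A_55_P2745005). At A_55_P2083939 the genotype effect went from 0.15 within scan day 1 to -0.22 within scan day 2, a difference of -0.37 (SE 0.16, exact permutation p = 0.02, limma adjusted p = 0.253). At A_55_P2745005 it went from 0.11 to 0.04, a difference of -0.07 (SE 0.18, exact permutation p = 0.687). Irf4, needed for plasma cells, had log2 fold changes of -0.08 (A_55_P2109445) and -0.12 (A_55_P2733572).

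Upstream of Irf5 and Irf7, 18 of 19 listed sensors, adaptors and kinases were tested, and 0 passed an unadjusted p under 0.05 between genotypes, where 2.90% of genes with a symbol did, with 10 higher, 8 lower and a median log2 fold change of 0.0018 against 0.04 over all genes. The largest rise in value was Ikbke, a kinase of Irf7 (0.24, exact permutation p = 0.189), and the largest fall in value Slc15a4, the transporter on which Irf5 activation depends (-0.24, exact permutation p = 0.147). A list of 11 genes held interferon receptors, kinases and STATs, with Ifng and Socs1 also on it. Of these 11, 1 passed an unadjusted p under 0.05, where 2.90% of genes with a symbol did, and the median was -0.06. A single gene in 11 sets the list little apart from that share. That gene was Ifnar1, a chain of the type I interferon receptor, which lay between 3.14 and 3.38 in WT mice (median 3.32), while Sting gt/gt mice lay between 2.68 and 3.25 (median 3.10). Its median in Sting gt/gt mice was under its lowest WT value, and its log2 fold change was -0.24 (SE 0.10, exact permutation p = 0.00466, limma adjusted p = 1.0). Ifngr1, a chain of the interferon gamma receptor, had 0.20 (exact permutation p = 0.0618). Among 14 DNA-binding partners and corepressors of IRFs, 0 passed, against the same 2.90%, with a median of 0.02, and the extremes were the Ets partners Spi1 (0.21, exact permutation p = 0.309) and Spib (-0.21, exact permutation p = 0.0833).

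Of 21 listed type I interferon targets, 18 were tested. The log2 fold change was below 0 for 15, where 38.3% of genes with a symbol were below 0, and above 0 for 3. By limma 0 passed an unadjusted p under 0.05 over all mice, where 2.90% of genes with a symbol did, and the median was -0.17 against 0.04 over all genes. Isg15, a ubiquitin-like protein, lay between 6.07 and 7.05 in WT mice (median 6.33), while Sting gt/gt mice lay between 5.61 and 6.67 (median 6.05). The groups overlapped, and its log2 fold change of -0.40 (SE 0.20, exact permutation p = 0.0828) was the lowest of the list, with Zbp1 at the other end (0.16, exact permutation p = 0.498). On scan day 1 the median of the list was -0.26 (-0.0058 over all genes), with 17 of 18 lower, where 51.4% of all genes were, and 0 passing, where 2.70% did. On scan day 2 it was -0.07 (0.07 over all genes), with 14 of 18 lower, where 38.2% were, and 3 of 18 passed an unadjusted p under 0.05, 2 lower and 1 higher, where 20.2% of all genes passed. Mean levels of the 18 genes overlapped between genotypes, with a WT range of 1.19 to 1.97 (median 1.51) and a Sting gt/gt range of 1.07 to 1.65 (median 1.46). The list was chosen with earlier results of these data known and is no independent evidence of a direction.

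Targets of the other members sat near the median of all genes, of which 2.90% passed an unadjusted p under 0.05 and 38.3% were lower. Of 18 targets of Irf1 and Irf2 in antigen processing and interferon gamma responses, 11 were higher, 7 lower and 0 passed an unadjusted p under 0.05, with a median of 0.06, from Ciita (-0.12, exact permutation p = 0.403) to Il15 (0.19, exact permutation p = 0.257). Of 7 Irf5 targets, 6 were tested and 0 passed, with a median of 0.06, from Il12a (-0.28, exact permutation p = 0.0962) to Tnf (0.25, exact permutation p = 0.354). Of 8 Irf8 targets 0 passed, with a median of 0.0070. Between scan days, 8 of 18 type I targets (3 higher and 5 lower on scan day 2) and 8 of 18 Irf1 and Irf2 targets (7 higher and 1 lower) passed an adjusted p under 0.05, against the 38.9% of all genes. The promoters of 7 of the 14 type I targets that had one held an ISRE, namely Cxcl10, Ifit1, Ifit3, Isg15, Oas1a, Oas3 and Rsad2. Over all tested genes with a promoter, the median log2 fold change of Sting gt/gt over WT was 0.03 for the 455 with an ISRE and 0.04 for the 11242 without one.

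**Figure D5:**
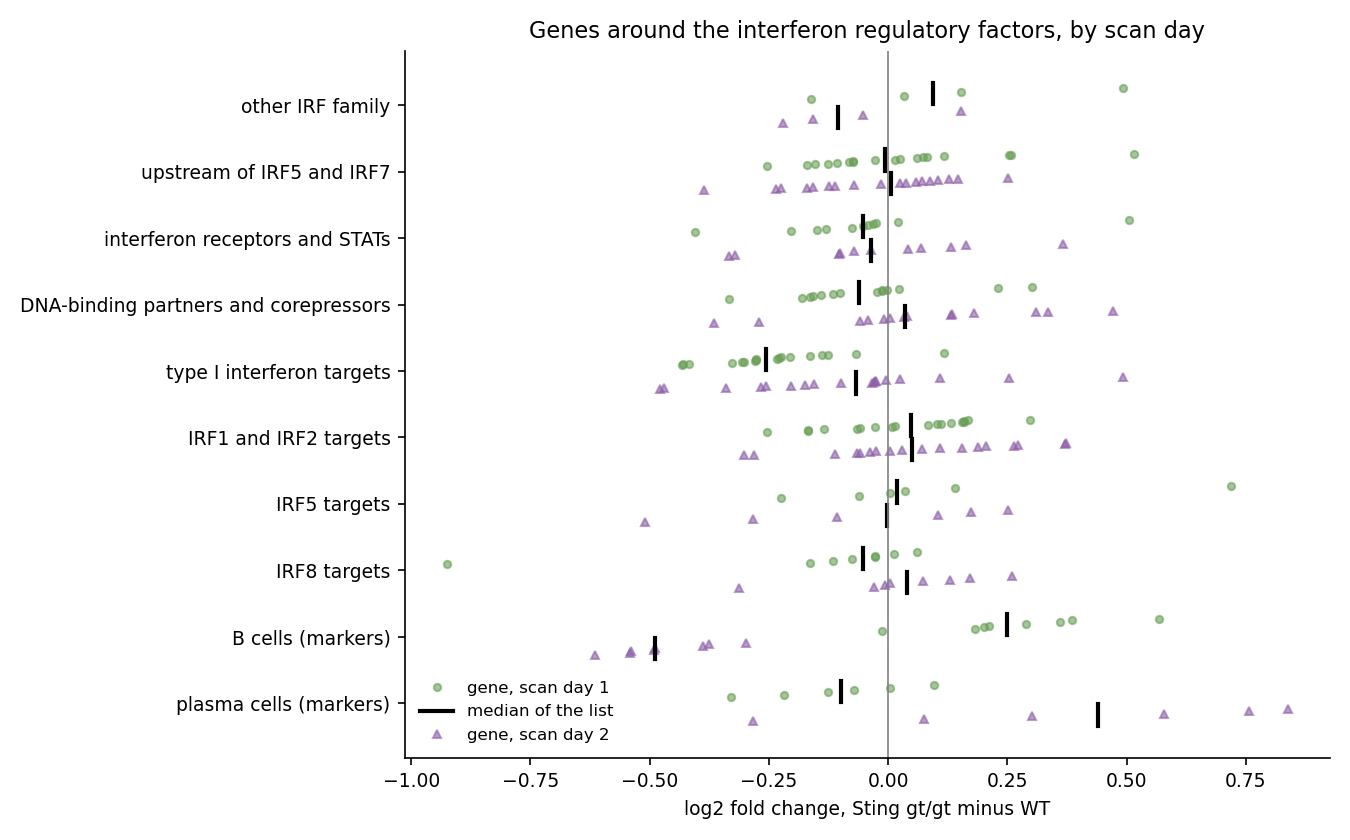
Log2 fold change of Sting gt/gt over WT (horizontal axis) of the tested genes of each list around the IRFs and of B cell and plasma cell markers, within scan day 1 and scan day 2, with 1 point per gene and a bar at each list's median. Type I interferon targets have medians of -0.26 and -0.07, and medians of B cell markers lie on opposite sides of 0 on the scan days, at 0.25 and -0.49.

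Markers of the cells that hold these factors are given beside the members, since in whole spleen fewer cells of a type and less RNA per cell cannot be told apart. B cell markers, of cells that express Irf8, had a median of 0.25 on scan day 1 (7 of 8 higher in Sting gt/gt mice) and -0.49 on scan day 2 (8 of 8 lower). On scan day 2, 6 of 8 passed an unadjusted p under 0.05, where 20.2% of genes with a symbol did, and the difference in genotype effect between scan days passed for 7 of 8 with a median of -0.76, where 14.7% of genes with a symbol passed. Mean B cell marker levels on scan day 2 ran from 2.36 to 2.89 in WT mice, and those of Sting gt/gt mice, 1.99 to 2.31, did not reach that range. Irf8 differed by -0.04 between the same mice. Plasma cell markers had a median of -0.10 on scan day 1 and 0.44 on scan day 2, and the difference passed for 4 of 6, against the same 14.7%. Stroma markers differed likewise, with medians of -0.41 and 0.47, and the difference passed for 3 of 4, against 14.7%.

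Over all 14 mice, medians of the marker lists between genotypes were -0.19 for B cells, 0.17 for plasma cells, 0.04 for T cells, 0.18 for neutrophils, 0.05 for monocytes and macrophages and 0.06 for conventional dendritic cells. They were -0.0023 for plasmacytoid dendritic cells, 0.16 for NK cells, -0.26 for erythroid cells, 0.02 for megakaryocytes and platelets and 0.12 for stroma. None of these markers passed an unadjusted p under 0.05 except 1 of 6 erythroid markers, where 2.90% of genes with a symbol did. Between scan days, 4 of 5 NK cell markers were higher on scan day 2 at an adjusted p under 0.05 (median of the list 0.55), as were 5 of 6 plasma cell markers (0.47), where 38.9% of genes with a symbol passed in either direction. Counts were near that share for conventional dendritic cells (3 of 6, median 0.30), neutrophils (3 of 7, median -0.42) and erythroid cells (2 of 6, median -0.37), and are no result about those cells. The part of these cells in the scan-day differences of Irf1, Irf2, Irf5, Irf7 and Irf8 was not tested.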

How the data were processed

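The authors ran Agilent Feature Extraction 11.0.1.1 on the scans, and per the file headers gProcessedSignal is a background-corrected intensity, not normalized between arrays. The authors also deposited a table of log2 values. Intensities were put on a log2 scale, each array's 75th percentile was subtracted, outlier spots were left out and repeated spots were averaged. Tests covered the 31766 of 56605 probes that were well above background on 7 or more arrays. Groups were compared by limma 3.58.1 in R 4.3.3 with Benjamini-Hochberg adjustment over all probes, and single probes by two-sided exact permutation over 3432 ways, or within scan days. Python 3.11.15, pandas 2.3.3, numpy 2.4.6, scipy 1.17.1 and matplotlib 3.10.9 were used. The members, 8 gene lists and 11 marker lists were chosen with earlier results of these data known. Genes named are the members, Irf3, Irf4, Irf9, Sting1, the extremes of most lists, listed genes past the threshold and the 3 genes most like each member. WT and Sting gt/gt arrays with the same number deviated from their group means together (r from 0.15 to 0.52 across probes). Once scan-day means were removed, r was above 0 for numbers 1, 2, 5 and 7 (0.16 to 0.28). It was below 0 for numbers 3, 4 and 6 (-0.40 to -0.02). A fit with the number as a block was therefore run as an alternative. The number of arrays limits the precision.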

Additional observations from a re-analysis of the deposited data

Results flagged for a closer look

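The genotype difference of Irf2 (A_51_P316523) changed between scan days by 0.27 (exact permutation p = 0.0386 within scan days), from -0.19 on scan day 1 to 0.08 on scan day 2. That of Irf3 (A_55_P2083939) changed by -0.37 (exact permutation p = 0.02), from 0.15 to -0.22. At the second Irf3 probe, A_55_P2745005, the change was -0.07 (exact permutation p = 0.687). These were 2 of 15 such differences checked, for the probes of the IRF family and Sting1, where 17.7% of all probes passed an unadjusted p under 0.05 by limma, so the count is no more than that share. Neither passed limma's adjusted p over all probes, at 0.363 for Irf2 and 0.253 for Irf3.

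Single arrays stood apart from the rest of their genotype in 2 of 36 groups of values checked, and chance gives about 1 in 20. Sting gt/gt replicate 7 had a highest local background of 234.5, far from the other 6 Sting gt/gt arrays. WT replicate 7 had 34400 probes well above background, more than the other 6 WT arrays. No member probe had an array that far from its group. Without Sting gt/gt replicate 7 the log2 fold change of Irf1 (A_55_P2000062) was 0.02, and that of Irf8 was -0.10.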

How the results depend on the processing

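Of the genotype differences of member probes recomputed under other settings, 111 kept their direction and side of the threshold and 6 changed direction. Those were Irf1 A_55_P2000062 with slide as a random block (-0.10), with slide as a fixed block (-0.32, resting on 5 arrays) and within scan day 1 (-0.14), Irf1 A_52_P175685 within scan day 2 (-0.041), Irf2 within scan day 2 (0.085) and Irf5 within scan day 1 (0.0097). With 1 array left out in turn, differences ran from -0.049 to 0.21 for Irf1 A_52_P175685, 0.02 to 0.22 for Irf1 A_55_P2000062, -0.10 to 0.040 for Irf2, -0.19 to 0.020 for Irf5, -0.19 to -0.03 for Irf7 A_51_P421876, -0.24 to -0.08 for Irf7 A_55_P2744251 and -0.10 to 0.020 for Irf8. No value exists for the dimmer probes of Irf1 and Irf7 with 1 probe per gene. All 40 list medians moved by less than the spread between mice, but those near 0 changed sign under some settings, among them with quantile normalization the genes upstream of Irf5 and Irf7 (-0.0091) and the Irf8 targets (-0.0063), and with no scaling the binding partners (-0.035).

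The 1091 probes past an unadjusted p under 0.05 became 2455 in the deposited table, 2325 with a scan day term, 1825 with the replicate block, 591 with slide as a random block, 5728 with array weights and an intensity trend and 7209 within scan day 2. They ran from 624 without Sting gt/gt replicate 6 to 2457 without Sting gt/gt replicate 1, with 663 without Sting gt/gt replicate 5. The main split was 561 higher and 530 lower, against 300 and 704 with median centring and 179 and 805 with no scaling. At an adjusted p under 0.05, 1 probe became 0 with the methods' t-test, with slide as a fixed block, with the replicate block, without scaling and with median centring, 2 with a scan day term, 3 in the table, 4 with array weights and 404 within scan day 2, and ran from 0 without WT replicates 1 or 5 or Sting gt/gt replicates 4 or 7 to 6 without WT replicate 4.

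Settings for scan-day results were chosen after seeing the data. The 12389 probes that differed between scan days became 0 in the table, where Irf7 A_51_P421876 changed direction (0.012). It passed with normexp (-0.35). The difference in genotype effect between scan days changed direction for Irf7 A_55_P2744251 with quantile normalization (-0.0078) and for Irf8 with median centring (0.11) and no scaling (0.025), and passed an unadjusted p for Irf1 A_55_P2000062 with median centring (0.54) and normexp (0.49) and for Irf2 with median centring (0.39). Median centring moved probes alike, since the median of this difference over all probes went from -0.0024 to 0.11, with 3914 probes past an unadjusted p higher and 2058 lower, and with no scaling it went to 0.024. The changes with these settings for Irf1, Irf2 and Irf8 are of that size and are no result about the members. Those with quantile normalization and normexp were not tested further. All 7 member probes were well above background on 14 arrays.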

Other observations

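In the deposited log2 table, the genotype effect of Irf3 at A_55_P2083939 differed between scan days by -0.49 (SE 0.16, exact permutation p = 0.00429, limma adjusted p = 0.147). It was 0.20 on scan day 1 (exact permutation p = 0.3) and -0.29 on scan day 2 (exact permutation p = 0.0286, the smallest that 4 against 4 allows). On scan day 2, where slide and genotype cannot be told apart, 4 of 4 Sting gt/gt mice were below all WT mice. Of all probes in these deposited values, 23.0% passed an unadjusted p under 0.05 between genotypes on scan day 2 by limma. The difference in genotype effect between scan days passed for 17.2% of them. The second Irf3 probe, A_55_P2745005, had a difference of -0.03 (exact permutation p = 0.837) in the same table.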
